A study of Danio rerio with 3 samples.

Results

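The heart tube has an arterial pole, where blood leaves through the outflow tract, and a venous pole, where it enters through the sinoatrial region. The poles were compared here in tomo-seq data, in which a tissue is cut into thin sections and the RNA of each section is sequenced. Each of the 3 hearts came from a Tupfel long fin wild-type zebrafish embryo dissected at 2 days post-fertilization (dpf) and cut into 10 µm sections, with no treatment and no mutant group. The arterial pole was taken as 18 sections, namely columns 4 to 10 of heart 1, columns 91 to 96 of heart 2 and columns 35 to 39 of heart 3. The venous pole was taken as 21 sections, namely columns 33 to 39 of heart 1, 53 to 61 of heart 2 and 15 to 19 of heart 3. Together these were 39 of the 117 tissue sections of the series. Sections of a pole were summed in each heart, so that each heart gave 1 arterial and 1 venous value, and the heart was the replicate (n = 3). The sections of heart 1 lie within the regions of the study, which rest on marker genes, among them myl7, nppa, vmhc, myh6, has2, bmp4 and tbx2b, and at the arterial end also on clusters of gene expression in that heart. The levels of heart 1 are therefore not fully independent of the choice of its sections. Of its venous sections, columns 33 to 37 also belong to the region taken as atrium in the study, and the last 3 hold few reads (549 to 1306 each). Those of hearts 2 and 3 were placed on the scale of heart 1 from the positions of the chamber myosins vmhc and myh6. Differences in these marker genes are therefore no finding and are given without a test.

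At this stage cells of the second heart field are added to the heart at both poles. The arterial pole lies against the pharyngeal arches, whose mesenchyme comes largely from the neural crest, and it later gains smooth muscle and elastic matrix. At the venous pole a ring of Isl1-positive pacemaker cells surrounds the inflow, next to the common cardinal veins and to the proepicardium, the source of the epicardium. In the zebrafish heart tbx2b and bmp4 mark myocardium that conducts slowly, at the poles and in the atrioventricular canal.

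The arterial sums were far deeper than the venous sums in hearts 1 and 2, and not in heart 3. The arterial pole held 1667108, 2895368 and 14700 gene reads in hearts 1, 2 and 3, against 381483, 292171 and 57203 in the venous pole. At least 1 read was found for 10188, 11433 and 392 genes in the arterial pole, and for 4783, 4956 and 975 genes in the venous pole. All 5 arterial sections of heart 3 held under 10000 reads. Levels are given below as reads per 10000 gene reads. A count of 0 allows up to 0.018, 0.0104 and 2.04 per 10000 in the arterial pole of hearts 1, 2 and 3, and 0.0786, 0.103 and 0.524 in the venous pole (3 reads of the total). These limits cover counting error only. Detected genes had a median of 14 to 40 reads in each sum and 1.36% to 12.5% of them had a single read. No use of molecular identifiers is described in the sources used here, so that 1 read may be a copy of another. A single row without a name took 4.605% to 28.8% of the arterial and 24.96% to 41.2% of the venous reads. In sections of tissue, fewer cells of a type and less RNA per cell cannot be told apart.

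**Figure D1:**
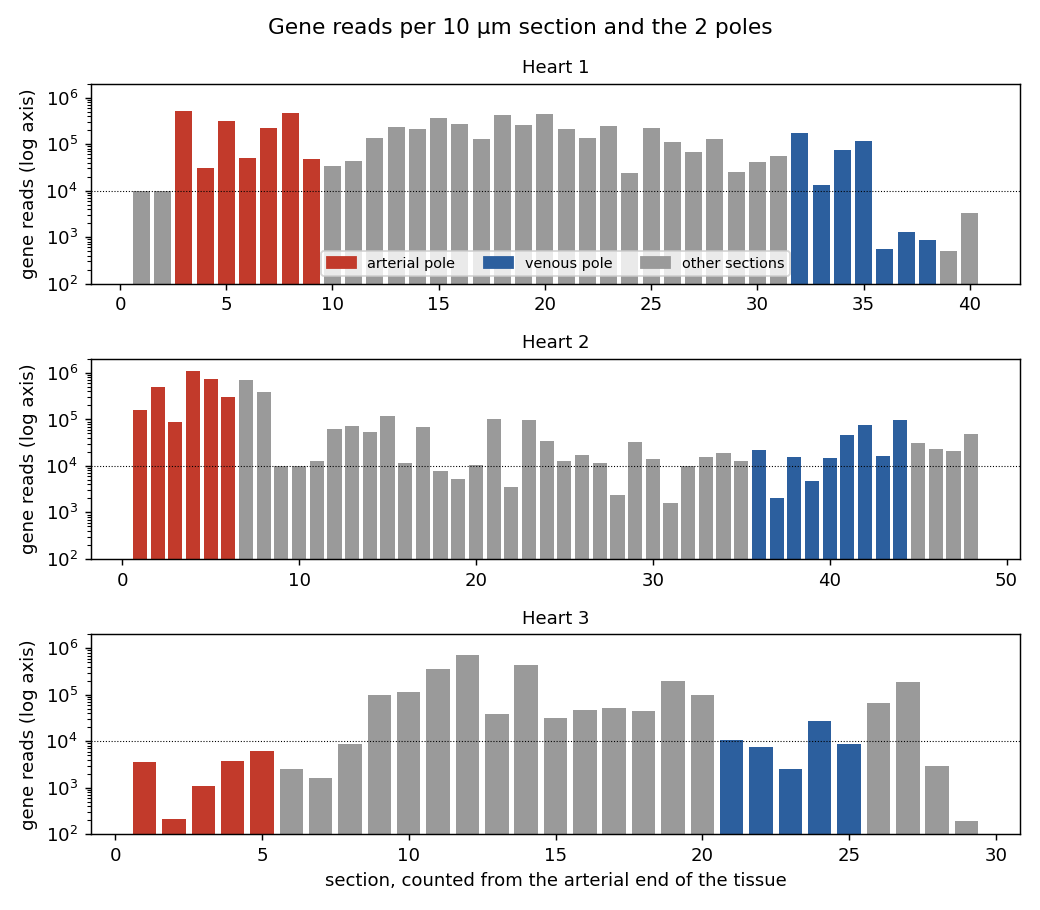
Gene reads in each 10 µm section (bars, log axis) of hearts 1, 2 and 3, counted from the arterial end of the tissue, with arterial sections in red, venous sections in blue and a dotted line at 10000 reads. In heart 1 columns 17 to 24, which lie outside both poles, are drawn in reverse order. All 5 arterial sections of heart 3 stayed under the line, and none of the arterial sections of hearts 1 and 2 did.

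The arterial sections of heart 3 were unlike those of hearts 1 and 2. Genes of the heart muscle sarcomere and of calcium handling (46 rows with reads in a pole) gave 27.8, 19.1 and 1044 of every 10000 reads in the arterial pole of hearts 1, 2 and 3, against 381, 190 and 282 in the venous pole. The myosin light chain gene MYL7, which marks all heart muscle, had 69, 67 and 159 reads in the arterial pole (0.414, 0.231 and 108 per 10000), against 995, 177 and 253 in the venous pole (26.1, 6.06 and 44.2 per 10000). The arterial sums of hearts 1 and 2 were thus low in muscle and that of heart 3 was richer in muscle than any venous sum. Whether the sections taken as arterial in heart 3 hold outflow tract was not tested, and results that include heart 3 are of the sections so chosen. Hearts 1 and 2 are therefore also given alone. In heart 1 the study read the edges of the muscle from myl7, so that the low muscle level of its arterial sections is part of how they were chosen.

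The markers of the poles themselves were thinly read in the sections taken as poles. The T-box gene tbx2b, which represses the chamber programme, had 145, 412 and 0 reads in the arterial pole of hearts 1, 2 and 3, against 133, 99 and 9 reads in the venous pole. Per 10000 this came to 0.87, 1.42 and 0 in the arterial pole and to 3.49, 3.39 and 1.57 in the venous pole. In heart 3 the 0 arterial reads allow a level up to 2.04, above the venous level, so that this heart gives no order. ISL1, the homeobox gene of pacemaker cells and second heart field progenitors, had 5, 26 and 0 arterial reads (0.03, 0.0898 and 0 per 10000), against 13, 0 and 0 venous reads (0.341, 0 and 0 per 10000). In heart 2 its arterial level lay under what 0 venous reads allow. SHOX2, which acts in sinoatrial development, had 0 reads in the arterial pole of every heart, against 23, 0 and 0 in the venous pole. In heart 2 SHOX2 had 0 reads in the whole tissue, and in heart 3 its 4 tissue reads lay outside both poles. The ligand gene BMP4 had 102, 72 and 0 reads in the arterial pole (0.612, 0.249 and 0 per 10000), against 95, 94 and 0 in the venous pole (2.49, 3.22 and 0 per 10000). HAS2, whose enzyme makes the hyaluronan of cardiac jelly, had 164, 0 and 0 arterial reads, against 0, 11 and 0 venous reads, with reads in 1 pole only in each of hearts 1 and 2. In heart 3 the markers lay almost wholly outside both poles. Its tissue held 445 tbx2b, 46 ISL1 and 783 BMP4 reads, of which the poles held 9, 0 and 0. Whether either pole of heart 3 holds the region it is named for was not tested.

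The chamber genes that set the sections are given as levels. The atrial myosin gene myh6 had 41, 4 and 0 reads in the arterial pole (0.246, 0.0138 and 0 per 10000), against 1111, 596 and 43 in the venous pole (29.1, 20.4 and 7.52 per 10000). The row named MYH6 (ENSDARG00000079564), a second heavy chain myosin, was taken as the ventricular myosin gene vmhc. This row had 311, 73 and 196 arterial reads (1.87, 0.252 and 133 per 10000), against 204, 20 and 24 venous reads (5.35, 0.685 and 4.2 per 10000). Its arterial level was below the venous one in hearts 1 and 2 and above it in heart 3. The natriuretic peptide gene nppa, a marker of chamber muscle, had 61, 194 and 0 arterial reads (0.366, 0.67 and 0 per 10000), against 1235, 137 and 257 venous reads (32.4, 4.69 and 44.9 per 10000). The gene myh6 is among the genes counted as lower in the test over all genes, and MYL7 and nppa are among those counted in hearts 1 and 2.

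Over 3 hearts few genes passed the test between the poles. Of 9429 genes tested, 16 were higher in the arterial pole (0.17%) and 9 were lower (0.0955%) at an adjusted p under 0.05 (0.265% in either direction), by a quasi-likelihood test with each heart as its own block. At an unadjusted p under 0.05 these were 351 and 112 genes. In hearts 1 and 2 alone, 75 of 9354 genes were higher (0.802%) and 38 were lower (0.406%, or 1.21% in either direction). These shares of all genes are the measure for the gene lists below, where a count of 0 in a list is no result about it. With 0 reads taken as a level of 0, the arterial level was above the venous one in every heart for 132 genes (1.4%) and below it for 181 (1.92%). In both comparisons 15 genes were called, each with the same direction. Leaving out heart 1 left 0 calls of 4736 genes tested by the same quasi-likelihood test (2 higher and 0 lower before adjustment), and leaving out heart 2 left 0 of 4219 (2 and 2 unadjusted). With limma on log2 CPM, 0 genes were higher and 2 lower over 3 hearts (325 and 128 unadjusted). A first form of the test, which kept the quasi-dispersion from falling under 1, called 0 genes over 3 hearts (311 higher and 90 lower unadjusted) and 0 in hearts 1 and 2 (307 and 81 unadjusted). The calls are therefore not firm, and the reads in each heart are given beside them. Scaling moved the split: with median-of-ratios factors it was 11 higher and 14 lower over 3 hearts and 42 and 43 in hearts 1 and 2, and with total gene reads 17 and 12, and 19 and 47. The median log2 fold change of all tested genes was 1.92 over 3 hearts and 1.98 in hearts 1 and 2, with 2856 of the tested genes at 0 reads in the venous pole and 61 at 0 in the arterial pole. With such genes set to a bound (3 reads over the pole, summed over hearts) these medians were 1.05 and 1.08. Log2 fold changes are therefore given relative to these medians, while each p tests the fold change before that shift. Of the 75 genes called higher in hearts 1 and 2, 63 lay above the median of 1.98 and the others did not. Against the medians with bounds, every such value would be 0.87 higher over 3 hearts and 0.9 higher in hearts 1 and 2. Where a pole of a heart had 0 reads, a lower bound of the fold is given for that heart, against 3 reads in that sum. These bounds are plain ratios of levels, from which the median of all genes is not taken off. They also leave out counting error in the pole with reads. A gene with 0 reads in a pole of all hearts has no residual spread of its own and the test takes its spread from genes of like level. It did so for 19 of the 25 genes called over 3 hearts and for 35 of the 113 called in hearts 1 and 2.

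The leading arterial genes were found in hearts 1 and 2 and in no venous sum. CNN3, which encodes a calponin that binds actin, had 1748, 4720 and 0 reads in the arterial pole (10.5, 16.3 and 0 per 10000), against 0 reads in the venous pole of all hearts. It was at least 133-fold higher in the arterial pole of heart 1 and 159-fold in that of heart 2 (adjusted p = 0.000715 over 3 hearts, and 6.21e-21 in hearts 1 and 2). CXCL12, the chemokine that guides migrating cells through its receptor CXCR4, had 1707, 962 and 0 arterial reads (10.2, 3.32 and 0 per 10000), against 0 venous reads, and was at least 130-fold higher in heart 1 and 32.4-fold in heart 2 (adjusted p = 0.00288, and 3.91e-11 in hearts 1 and 2). BARX1, a homeobox gene of the pharyngeal arch mesenchyme, had 257, 3654 and 0 arterial reads, against 0 venous reads, and was at least 19.6-fold higher in heart 1 and 123-fold in heart 2 (adjusted p = 0.00332, and 6.12e-11 in hearts 1 and 2). COL11A1, a fibrillar collagen chain of cartilage, had 370, 1450 and 0 arterial reads, against 0 venous reads, and was at least 28.2-fold higher in heart 1 and 48.8-fold in heart 2 (adjusted p = 0.012, and 4.74e-06 in hearts 1 and 2). In each of these genes hearts 1 and 2 had reads in the arterial pole alone, and heart 3 had none in either pole. Their p values rest on spread taken from other genes and do not measure agreement between hearts. With limma the smallest adjusted p of any gene in hearts 1 and 2 was 0.00111.

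**Figure D2:**
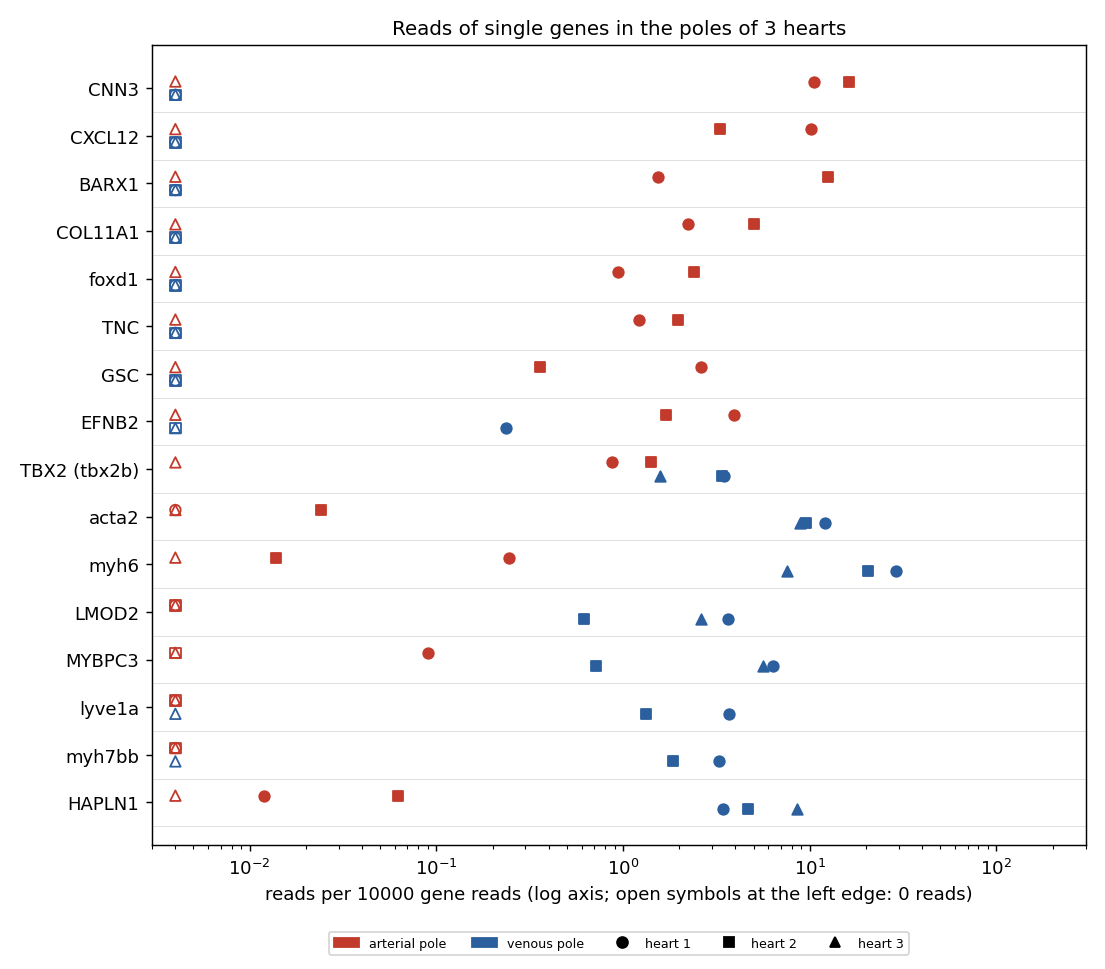
Reads per 10000 gene reads (log axis) of 16 genes in the arterial pole (red) and the venous pole (blue) of heart 1 (circles), heart 2 (squares) and heart 3 (triangles), with open symbols at the left edge for 0 reads. CNN3 to GSC have reads in the arterial pole of hearts 1 and 2 and 0 reads in every venous sum, while acta2 and LMOD2 to HAPLN1 lie higher in the venous pole of hearts 1 and 2.

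Along hearts 1 and 2 these genes lay near the arterial end. In heart 1, 99.8% of the tissue reads of CNN3, 99.4% of those of CXCL12 and 100% of those of BARX1 fell into the 7 arterial sections, which held 28.3% of all gene reads. In heart 2 the 6 arterial sections held 67.9% of the reads of CNN3, 41.8% of those of CXCL12 and 89.5% of those of BARX1, beside 55.2% of all gene reads. The highest CXCL12 section of heart 2, with 1017 reads, was the next section outside the arterial pole. In heart 3 the reads of these genes lay elsewhere: 370 of the 377 CNN3 reads were in section 12 counted from the arterial end, and all 133 CXCL12 reads were in sections 10 to 12. Both are outside the 5 sections taken as arterial. BARX1, COL11A1, GSC and foxd1 had 0 reads in the tissue of heart 3.

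**Figure D3:**
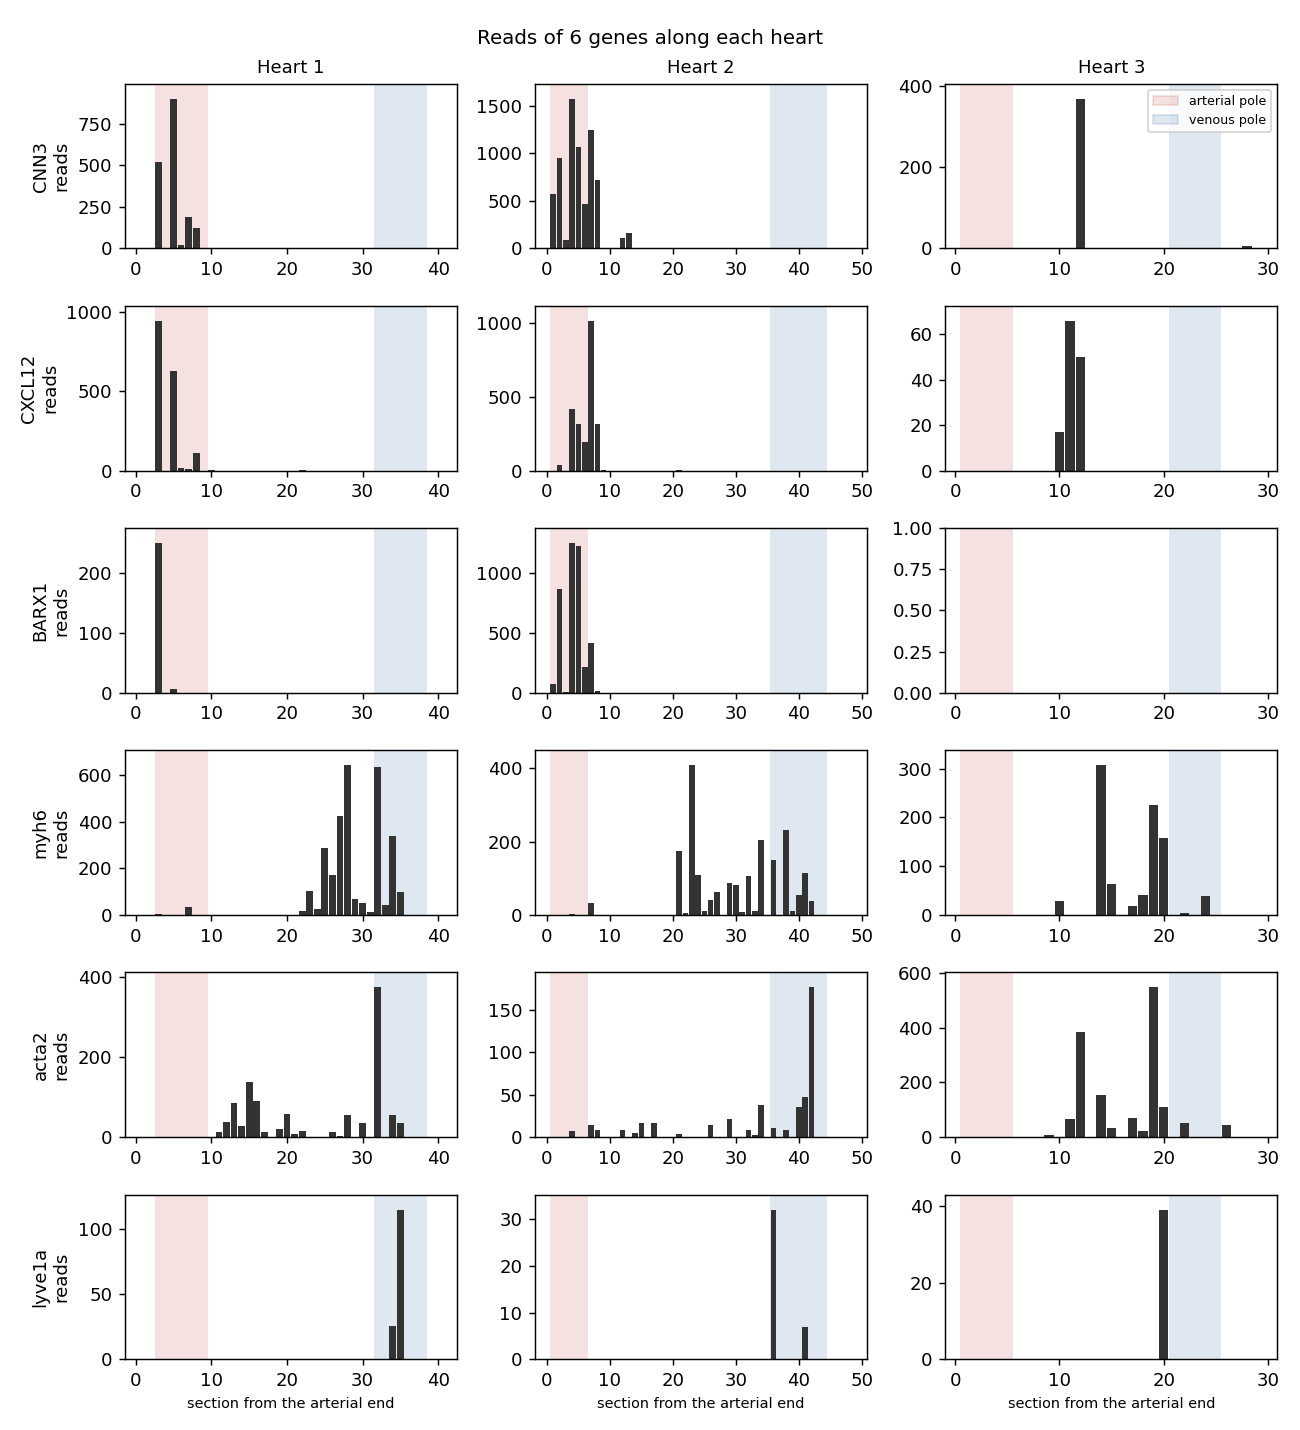
Reads of CNN3, CXCL12, BARX1, myh6, acta2 and lyve1a in each section of hearts 1, 2 and 3, counted from the arterial end, with arterial sections shaded red and venous sections shaded blue. Columns 17 to 24 of heart 1 are drawn in reverse order. CNN3 and CXCL12 lie mainly in or next to the arterial sections of hearts 1 and 2, some of which lack CXCL12 reads. In heart 3 they lie in sections 10 to 12, between the 2 poles (7 CNN3 reads excepted).

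Other genes of neural crest derivatives and of pharyngeal mesenchyme were read in the same way in hearts 1 and 2. Of 32 tested genes of this list, 1 was higher and 0 were lower over 3 hearts, and 3 were higher and 1 was lower in hearts 1 and 2 alone (1 and 1 when scaled by total gene reads, and 0 and 0 with limma). Among all genes, 0.17% were higher and 0.0955% lower over 3 hearts, and 0.802% and 0.406% in hearts 1 and 2. The forkhead gene foxd1 had 157, 691 and 0 arterial reads, against 0 venous reads, and was at least 12-fold higher in heart 1 and 23.2-fold in heart 2 (adjusted p = 0.0102 in hearts 1 and 2). The homeobox gene GSC had 434, 104 and 0 arterial reads, against 0 venous reads (at least 33.1-fold higher in heart 1 and 3.5-fold in heart 2, adjusted p = 0.0288 in hearts 1 and 2). Neither passed over 3 hearts (adjusted p = 0.129 for foxd1 and 0.225 for GSC). The gene that was lower is TYRP1, an enzyme of melanin synthesis, with 0, 4 and 0 arterial reads, against 2, 237 and 0 venous reads. All 237 came from 1 section of heart 2. The summed list stood at 27.2, 41.5 and 7.48 per 10000 in the arterial pole, against 8.65, 52.2 and 7.17 in the venous pole, so that as a sum it was not higher in the arterial pole of heart 2. Its median log2 fold change was 1.53 above that of all genes over 3 hearts and 1.56 above it in hearts 1 and 2.

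Single matrix and signalling genes were read in the arterial pole of hearts 1 and 2 as well. As a sum the matrix list, given below, was higher in the arterial pole of heart 1 and lower in that of hearts 2 and 3. TNC, which encodes the matrix protein tenascin, had 203, 568 and 0 arterial reads, against 0 venous reads, and was at least 15.5-fold higher in heart 1 and 19.1-fold in heart 2 (adjusted p = 0.0113 in hearts 1 and 2, and 0.134 over 3 hearts). EFNB2, the ephrin ligand of arterial endothelium, had 653, 491 and 0 arterial reads (3.92, 1.7 and 0 per 10000), against 9, 0 and 0 venous reads (0.236, 0 and 0 per 10000). It was 4.12 log2 units higher in the arterial pole of hearts 1 and 2 relative to all genes (adjusted p = 0.0184, and 0.379 over 3 hearts). NET1 had 725, 622 and 5 arterial reads (4.35, 2.15 and 3.4 per 10000), against 6, 0 and 0 venous reads. It was higher in the sections taken as arterial in all 3 hearts, by 5.12 ± 1.62 log2 units relative to all genes (SE; adjusted p = 0.0467, and 0.00458 in hearts 1 and 2). Its 5 reads in heart 3 came from 1 section with 211 gene reads and were 1.23% of its 408 tissue reads there. Against 3 reads in the venous sum they give 6.49-fold, which leaves out the counting error of the 5 reads. The growth factor receptor gene FGFR1 had 331, 419 and 0 arterial reads, against 0, 3 and 0 venous reads, which did not pass in hearts 1 and 2 (adjusted p = 0.0951). FOXC1, a forkhead gene of neural crest and mesoderm, had 215, 251 and 0 arterial reads, against 0 venous reads, and did not pass either (adjusted p = 0.0903 in hearts 1 and 2).

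The list of outflow tract and smooth muscle genes did not separate the poles as a whole. Of 25 tested genes, 1 was higher (CNN3) and 1 was lower (acta2) over 3 hearts, and the same genes were called in hearts 1 and 2. Among all genes, 0.17% were higher and 0.0955% lower over 3 hearts, and 0.802% and 0.406% in hearts 1 and 2. Its sum was 33.8, 30.7 and 28.6 per 10000 in the arterial pole, against 29.3, 49.1 and 23.95 in the venous pole. The smooth muscle actin gene acta2 had 0, 7 and 0 arterial reads (0, 0.0242 and 0 per 10000), against 463, 278 and 51 venous reads (12.1, 9.51 and 8.92 per 10000). The arterial level was below the venous one in each heart (log2 fold change relative to all genes -11.62 ± 1.47, SE; adjusted p = 0.000715, and 2.12e-10 in hearts 1 and 2). In heart 1, 373 of its venous reads came from column 33, the first venous section. In heart 3 all 51 came from 1 section, column 18, which held 7477 gene reads. The venous sections held 42.9%, 62.6% and 3.42% of its tissue reads, beside 6.48%, 5.57% and 2.21% of all gene reads. The rest of its reads lay mainly between the poles. The pericyte gene RGS5 had 296, 55 and 0 arterial reads, against 0 venous reads (adjusted p = 0.535, and 0.195 in hearts 1 and 2).

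Another set of genes had reads in the sum taken as arterial in all 3 hearts and passed only with heart 3 included. PMM2, a phosphomannomutase, had 8, 388 and 95 arterial reads, against 0 venous reads, and was at least 13.1-fold higher in heart 2 and 123-fold in heart 3 (adjusted p = 0.00376). CDCA4 had 115, 242 and 35 arterial reads, against 0 venous reads (at least 8.77-fold, 8.14-fold and 45.4-fold higher in hearts 1, 2 and 3, adjusted p = 0.0115). The ubiquitin ligase gene wwp2 had 93, 211 and 27 arterial reads, against 0 venous reads (at least 7.09-fold, 7.1-fold and 35-fold higher, adjusted p = 0.0246). The genes polr3glb, PDCD2, NEK7 and PRPF18 also had reads in all 3 arterial sums and 0 in the venous ones, with adjusted p from 0.012 to 0.0498. Their bounds ran from 38.9-fold to 157-fold in heart 3 and did not pass 4.96-fold in hearts 1 and 2. The levels of PMM2 and PDCD2 in heart 1 and of polr3glb in heart 2 lay under what 0 venous reads allow and give no direction. In heart 3 the arterial reads of each of these 7 genes came from a single section. None of these 7 genes passed in hearts 1 and 2 alone, where their adjusted p ran from 0.286 to 0.839. The blood globin gene hbae3 had 1946, 0 and 16 arterial reads, against 0 venous reads (at least 148-fold higher in heart 1 and 20.8-fold in heart 3, adjusted p = 0.00631), with 0 reads in both poles of heart 2 and 1798 of the reads of heart 1 in 1 section. The G protein gene gna14, named after its values were seen, had 0, 288 and 83 arterial reads, against 0 venous reads (adjusted p = 0.0148). A further 2 of the 16 higher genes have no name in the reference table.

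In hearts 1 and 2, 18 heart muscle genes were lower in the arterial pole. Of the 40 tested genes of the sarcomere and calcium handling list, 5 were lower and 0 higher over 3 hearts, and 18 were lower and 0 higher in hearts 1 and 2 alone (4 lower with limma). Of all genes, 0.0955% were lower over 3 hearts and 0.406% in hearts 1 and 2. The 18 include MYL7, nppa and myh6 and the 5 include myh6, which are markers of the regions and no finding. Before adjustment 2 were higher and 27 lower in hearts 1 and 2. The 2 higher ones, named after their values were seen, were tnnt2c, with 188, 43 and 0 arterial reads against 0 venous reads, and MYH7, with 173, 49 and 53 arterial reads against 0, 0 and 64 venous reads. Chamber muscle genes placed the sections, so that this list is not independent of the choice of sections. Its median log2 fold change was -3.74 over 3 hearts, beside 1.92 for all genes. LMOD2, which nucleates actin filaments in the sarcomere, had 0 arterial reads in all hearts, against 140, 18 and 15 venous reads, and was at least 204-fold, 59.5-fold and 1.28-fold lower in hearts 1, 2 and 3 (adjusted p = 0.012, and 0.003 in hearts 1 and 2). MYBPC3, the myosin-binding protein C of heart muscle, had 15, 0 and 0 arterial reads (0.09, 0 and 0 per 10000), against 243, 21 and 32 venous reads (6.37, 0.719 and 5.59 per 10000). It was lower in the arterial pole of each heart (log2 fold change relative to all genes -8.89 ± 1.57, SE; adjusted p = 0.0274, and 0.00506 in hearts 1 and 2). In heart 3 the venous reads of both LMOD2 and MYBPC3 came from column 18 alone, the same section as those of acta2. The myosin gene myh7bb had 0 arterial reads, against 124, 54 and 0 venous reads (at least 181-fold lower in heart 1 and 178-fold in heart 2, adjusted p = 0.0274, and 0.000596 in hearts 1 and 2), and BVES, a membrane protein of heart muscle named after its values were seen, had 0 arterial reads, against 152, 27 and 0 venous reads (adjusted p = 0.0312, and 0.000759 in hearts 1 and 2). Most venous reads of heart 1 came from column 33, which the atrial region shares, for cmlc1 (1666 of 2256), atp2a2a (430 of 677) and GAPDH (1079 of 1362).

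The calcium pump and light chain genes turned the other way in heart 3. The calcium pump gene atp2a2a had 12, 21 and 29 arterial reads (0.072, 0.0725 and 19.7 per 10000), against 677, 232 and 46 venous reads (17.7, 7.94 and 8.04 per 10000). Its log2 fold change relative to all genes was -8.72 in hearts 1 and 2 (adjusted p = 1.08e-07) and did not pass over 3 hearts (adjusted p = 0.513). The myosin light chain gene cmlc1 had 249, 120 and 127 arterial reads (1.49, 0.414 and 86.4 per 10000), against 2256, 891 and 81 venous reads (59.1, 30.5 and 14.2 per 10000). The tropomyosin gene tpm4a had 601, 549 and 445 arterial reads (3.61, 1.9 and 303 per 10000), against 1649, 1048 and 322 venous reads (43.2, 35.9 and 56.3 per 10000). For all of these the arterial level was under the venous level in hearts 1 and 2 and above it in heart 3. GAPDH, a glycolytic enzyme, had 103, 52 and 53 arterial reads (0.618, 0.18 and 36.1 per 10000), against 1362, 165 and 103 venous reads (35.7, 5.65 and 18 per 10000), again with heart 3 in the other order. Its log2 fold change relative to all genes was -6.79 in hearts 1 and 2 (adjusted p = 1.23e-06), and it did not pass over 3 hearts (adjusted p = 0.849). The creatine kinase gene CKB had 0, 0 and 7 arterial reads, against 196, 47 and 0 venous reads (at least 286-fold lower in heart 1 and 155-fold in heart 2, adjusted p = 2.84e-05 in hearts 1 and 2, and 0.47 over 3 hearts).

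**Figure D4:**
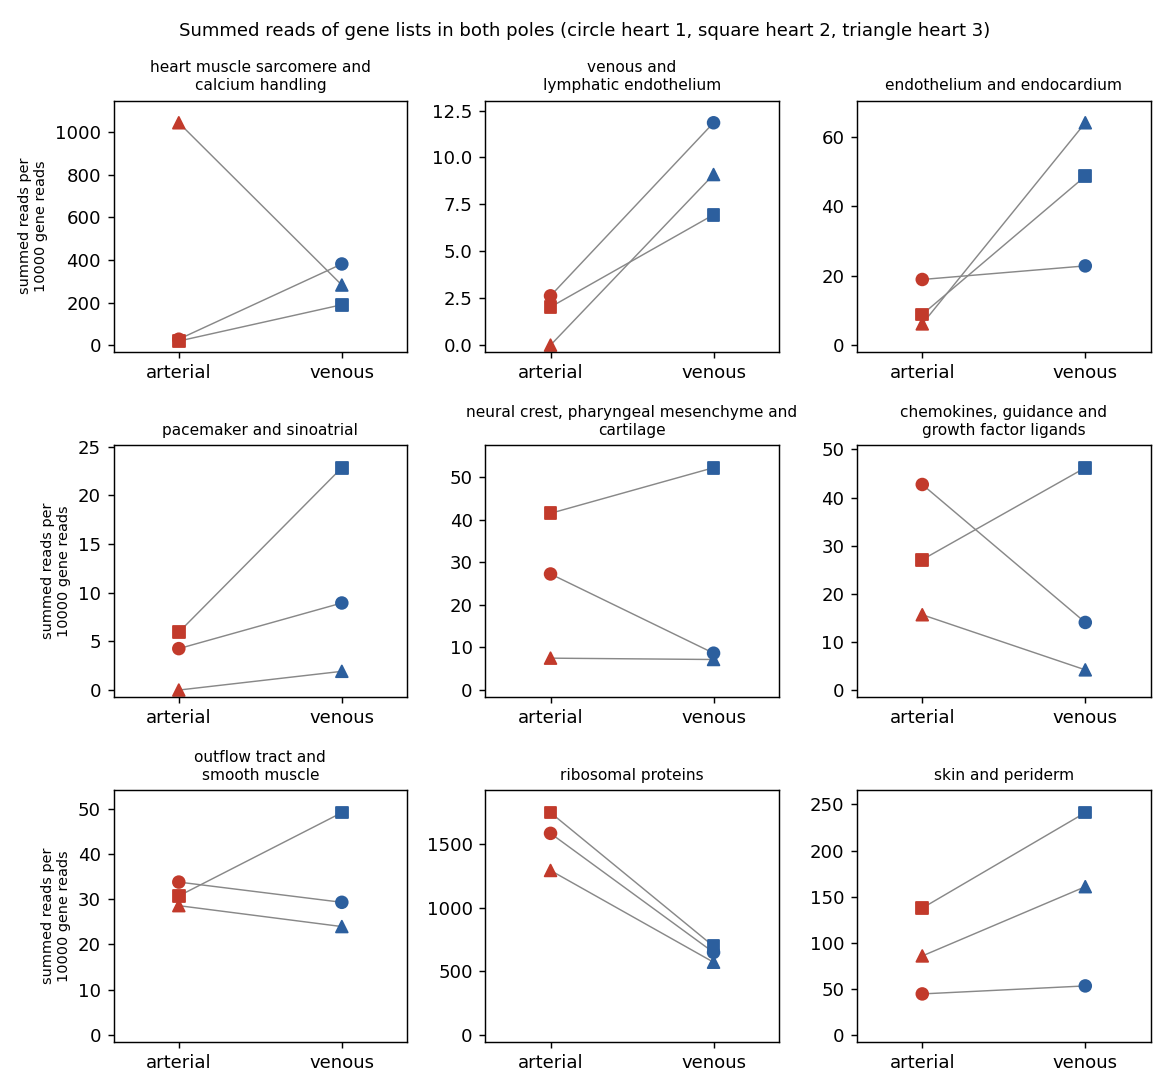
Summed reads per 10000 gene reads (linear axes) of 9 gene lists in the arterial and venous poles, with lines joining the poles of heart 1 (circles), heart 2 (squares) and heart 3 (triangles). The muscle list is lower in the arterial pole of hearts 1 and 2 and higher in that of heart 3, and ribosomal protein genes lie higher in the arterial pole of each heart.

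At the venous pole, genes of vessel lining and matrix were read beside those of muscle. The hyaluronan receptor gene lyve1a, a marker of lymphatic and venous endothelium, had 0 arterial reads in all hearts, against 141, 39 and 0 venous reads, and was at least 205-fold lower in the arterial pole of heart 1 and 129-fold in that of heart 2 (adjusted p = 0.0274, and 0.000596 in hearts 1 and 2). In hearts 1 and 2 all of its tissue reads lay in the venous sections, and in heart 3 all 39 reads lay in section 20 counted from the arterial end, just outside the venous sections. The hyaluronan link protein gene HAPLN1 had 2, 18 and 0 arterial reads (0.012, 0.0622 and 0 per 10000), against 130, 137 and 49 venous reads (3.41, 4.69 and 8.57 per 10000). It was lower in the arterial pole of each heart (log2 fold change relative to all genes -8.73 ± 1.44, SE; adjusted p = 0.0277, and 0.0095 in hearts 1 and 2). The venous sections held 17.1%, 58.5% and 4.72% of its tissue reads, beside 6.48%, 5.57% and 2.21% of all gene reads. The antizyme gene oaz2b, which acts on polyamine synthesis, had 0, 6 and 0 arterial reads, against 161, 52 and 21 venous reads (adjusted p = 0.0422, and 0.0101 in hearts 1 and 2). Its 21 venous reads in heart 3 also came from column 18 alone. The water channel gene AQP1 had 79, 188 and 0 arterial reads (0.474, 0.649 and 0 per 10000), against 257, 1236 and 241 venous reads (6.74, 42.3 and 42.1 per 10000). Its level was below the venous one in each heart, and the difference passed in hearts 1 and 2 (adjusted p = 3.57e-05) but not over 3 hearts (adjusted p = 0.0707). The podocalyxin gene podxl, a sialomucin of vessel lining and mesothelium, had 88, 181 and 0 arterial reads, against 169, 851 and 91 venous reads (adjusted p = 0.00528 in hearts 1 and 2, and 0.174 over 3 hearts).

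The summed list of venous and lymphatic endothelium was 2.63, 2.03 and 0 per 10000 in the arterial pole, against 11.85, 6.95 and 9.09 in the venous pole, and 1 of its 11 tested genes (lyve1a) was lower. The wider list of endothelium and endocardium was 18.9, 8.86 and 6.12 in the arterial pole, against 22.9, 48.7 and 64.2 in the venous pole. AQP1 alone gave 257 of 872, 1236 of 1424 and 241 of 367 venous reads of this list. Of its arterial reads AQP1 gave 79 of 3157, 188 of 2565 and 0 of 9. The order of the poles in hearts 1 and 2 thus rests on this row, which is also on the red blood cell list. Of its 28 tested genes 0 passed over 3 hearts (2 higher and 2 lower before adjustment), and 1 was higher (EFNB2) and 1 lower (AQP1) in hearts 1 and 2. Both lists stand beside 0.265% of all genes called over 3 hearts and 1.21% in hearts 1 and 2.

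The pacemaker and sinoatrial list gave 4.25, 5.94 and 0 per 10000 in the arterial pole, against 8.94, 22.8 and 1.92 in the venous pole. In heart 1 the marker genes tbx2b and BMP4 gave 133 and 95 of its 341 venous reads, so that this sum rests largely on genes that set the sections of that heart. In heart 2 tbx2b, BMP4 and a second row named TBX2 gave 99, 94 and 338 of 667 venous reads. In heart 3 tbx2b gave 9 of 11. Of its 10 tested genes 0 passed in either comparison (0 before adjustment), which beside 0.265% and 1.21% of all genes called is no result about the list. The second row named TBX2 (ENSDARG00000018025) had 248, 1072 and 0 arterial reads, against 6, 338 and 0 venous reads, with hearts 1 and 2 in opposite order per 10000 (1.49 and 3.7 in the arterial pole, against 0.157 and 11.6 in the venous pole). The list of the venous progenitors, proepicardium and epicardium gave 31.99, 13.94 and 6.12 per 10000 in the arterial pole, against 24.1, 57.2 and 64.3 in the venous pole. Of its 18 tested genes 1 was higher over 3 hearts, namely CXCL12, whose symbol does not tell the zebrafish copies apart. In hearts 1 and 2, CXCL12 was higher and podxl lower.

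Of the genes of signalling pathways, CXCL12 was called over 3 hearts, 1 of 42 tested chemokines, guidance molecules and growth factor ligands. Of 42 tested genes of the BMP and TGF-beta pathways, 47 of the Wnt pathway, 14 of retinoic acid metabolism and signalling and 21 of the Notch pathway, 0 passed in either direction over 3 hearts and 0 in hearts 1 and 2. Beside 0.265% and 1.21% of all genes called, these counts of 0 are no result about the lists. At an unadjusted p under 0.05 over 3 hearts there were 1 higher and 0 lower in the BMP and TGF-beta list, 2 and 2 in the Wnt list, 1 and 0 in the retinoic acid list and 0 and 1 in the Notch list. The Wnt inhibitor gene SFRP5 had 103, 565 and 0 arterial reads, against 67, 1561 and 383 venous reads, or 0.618 and 1.95 per 10000 in the arterial pole of hearts 1 and 2, against 1.76 and 53.4 in the venous pole. Its venous level was the higher one in each heart (adjusted p = 0.506 over 3 hearts, and 0.0588 in hearts 1 and 2). BMP2 had 101, 169 and 0 arterial reads, against 0 venous reads (adjusted p = 0.808, and 0.509 in hearts 1 and 2). The Notch modifier gene LFNG had 127, 69 and 0 arterial reads, against 380, 48 and 185 venous reads (adjusted p = 0.466, and 0.417 in hearts 1 and 2).

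Ribosomal protein genes took a larger share of arterial than of venous reads in each heart. Their 73 rows gave 1586, 1749 and 1294 of every 10000 reads in the arterial pole, against 649, 698 and 572 in the venous pole. In hearts 1 and 2, 25 of 71 tested genes were higher and 0 lower, beside 0.802% and 0.406% of all genes. Over 3 hearts 0 passed (8 higher and 0 lower before adjustment). Relative to all genes their median was -0.07 in hearts 1 and 2 and -0.70 over 3 hearts, while with limma it was 0.26 and 0.17, and with genes at 0 set to their bound it was 0.83 and 0.17, so that the side on which the list lay relative to all genes turned with the tool and with the treatment of zeros. The 25 calls became 11 with median-of-ratios factors and 7 with total gene reads, and 0 were lower with either. The row rps20 had 7731, 18160 and 81 arterial reads, against 456, 713 and 73 venous reads, and was 0.28 log2 units above the median of all genes in hearts 1 and 2 (adjusted p = 0.00036 before the shift). Mitochondrially encoded genes gave 221, 199 and 31.97 per 10000 in the arterial pole, against 327, 118 and 489 in the venous pole, and 0 of 13 passed in either comparison (0 unadjusted over 3 hearts, and 2 higher and 0 lower in hearts 1 and 2).

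Metabolic and cell cycle genes were tested by the same rule. Beside 0.265% of all genes called over 3 hearts and 1.21% in hearts 1 and 2, a count of 0 is no result about a list. Of 18 genes of glycolysis 0 passed over 3 hearts (1 higher and 1 lower unadjusted), and GAPDH and ALDOA were lower in hearts 1 and 2. Of 23 genes of the tricarboxylic acid cycle 0 passed in either comparison (0 unadjusted in either). Of 30 cell cycle genes 0 passed over 3 hearts (4 higher and 0 lower unadjusted), and their sum was 25.2, 51.2 and 0 per 10000 in the arterial pole, against 11.3, 18.4 and 60.3 in the venous pole. The thymidylate synthase gene TYMS had 119, 195 and 0 arterial reads, against 0 venous reads (adjusted p = 0.674, and 0.371 in hearts 1 and 2).

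Of 43 tested matrix genes, HAPLN1 alone was called over 3 hearts, and in hearts 1 and 2 TNC was higher and HAPLN1 lower. Relative to all genes the median of the matrix list was -1.6 over 3 hearts and -1.02 in hearts 1 and 2. With genes at 0 set to their bound it was -0.73 and -0.14. The matrix sum was 65.3, 36.27 and 27.89 per 10000 in the arterial pole, against 24.04, 152.4 and 97.37 in the venous pole. Of 21 immediate early and heat shock genes 0 passed over 3 hearts (1 higher and 2 lower unadjusted). In hearts 1 and 2 HSP90AB1 was higher and HSPB1 lower. The calls of both lists stand beside 0.265% of all genes called over 3 hearts and 1.21% in hearts 1 and 2. Of 81 nuclear genes of oxidative phosphorylation 0 passed in either comparison (0 before adjustment over 3 hearts, and 1 higher in hearts 1 and 2). Beside 0.265% and 1.21% of all genes called, this is no result about the list.

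Genes of other cell types were read in both poles. Skin and periderm genes, of which 0 of 20 passed over 3 hearts (5 higher and 2 lower unadjusted), gave 44.5, 138 and 85.7 per 10000 in the arterial pole, against 53.2, 241 and 161 in the venous pole. Beside 0.265% of all genes called over 3 hearts, this count of 0 is no result about the list. The keratin gene krt4 had 42, 8189 and 0 arterial reads, against 0, 13 and 121 venous reads, so that 1 arterial sum held nearly all of them. It was called in hearts 1 and 2 (5.04 log2 units higher relative to all genes, adjusted p = 2.22e-09) and not over 3 hearts (adjusted p = 0.89). In hearts 1 and 2, 3 of the 20 skin genes were higher (krt4, evpla and krt91) and 1 was lower (ANXA2). The shares of all genes there were 0.802% and 0.406%. The gene evpla had 12, 1281 and 0 arterial reads and krt91 had 17, 1232 and 1, both against 0 venous reads. Nearly all arterial reads of the 3 higher genes thus came from heart 2. ANXA2 had 99, 373 and 0 arterial reads, against 71, 2014 and 16 venous reads. Red blood cell genes gave 33.9, 1.43 and 10.9 per 10000 in the arterial pole, against 8.83, 52.3 and 60.1 in the venous pole. AQP1, which the endothelium list shares, gave 257 of 337, 1236 of 1527 and 241 of 344 of these venous reads. It gave 79 of 5652, 188 of 413 and 0 of 16 of the arterial ones. Neutrophil and macrophage genes gave 3.41, 2.03 and 0 in the arterial pole, against 70.5, 2.19 and 9.44 in the venous pole. Skeletal muscle genes, some of which the heart also uses, gave 9.65, 0.732 and 144 in the arterial pole, against 33.2, 15.09 and 15.4 in the venous pole. The part of these cell types in the calls was not tested.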

How the data were processed

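The data are tomo-seq read counts of 3 wild-type zebrafish hearts. The authors prepared CEL-seq libraries, mapped reads to the genome Zv9 (BWA 0.6.2 is among the tools their notes name) and deposited whole-number counts per gene and section, which are not normalized. The other 171 columns lie outside the tissue and were not used. Spike-in rows were left out. The reference table names 12905 of the 16023 IDs (80.5%), and a symbol in capitals is the human match. The row of tbx2b was told from a second row named TBX2 by its profile in the study's source data.

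Section counts were summed by pole and heart. Genes with at least 10 reads over the 6 sums and reads in at least 2 of them were tested by a quasi-likelihood test on counts with trimmed-mean (TMM) factors, the heart as a block and Benjamini-Hochberg adjustment, written in base R (R 4.3.3, limma 3.58.1) because the check of units could not read the tables as counts. The planned count package was run only as a trial outside the reported analysis. Both poles of a heart come from 1 animal, and this pairs the sums. A first form of the test kept the quasi-dispersion at 1 or above and called 0 genes. It was replaced by a form without this floor, as in the planned test, after those results were seen and after both forms were tested on simulated data. The choice was thus not blind. In the simulation with a trended spread, the form used made 11 calls over 3 hearts (1 false) and 28 in hearts 1 and 2 (3 false). It recovered 11.8% and 23.4% of the genes changed 64-fold. The form with the floor recovered 0% and 1.3%, with 0 false calls. The members and gene lists were chosen with earlier results of these data known. Genes named are the markers of the regions, called genes whose levels lie on one side in 3 hearts (up to 10 each way), 8 more each way from hearts 1 and 2, and up to 4 of each list by p. Alternatives changed the scaling, the filters, the test, the block, the sections and the hearts used.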

Additional observations from a re-analysis of the deposited data

How the results depend on the processing

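The counts of calls are not firm. Over 3 hearts, 16 genes were higher and 9 lower in the arterial pole. These were 0 and 2 with limma on log2 CPM, 2931 and 173 with no replicate block, 76 and 37 with sections under 10000 reads left out (which removes heart 3), 11 and 14 with median-of-ratios factors, and 0 and 0 with the quasi-dispersion kept at 1 or above. Leaving out 1 heart gave 0 to 75 higher and 0 to 38 lower genes, the upper values without heart 3. In hearts 1 and 2, where 75 were higher and 38 lower, they were 42 and 43 with median-of-ratios factors, 19 and 47 with total gene reads, 44 and 9 with limma, 3200 and 244 with no replicate block, and 0 and 0 with the quasi-dispersion kept at 1 or above. The alternatives for hearts 1 and 2 and the form with the kept quasi-dispersion were added after the data were seen. Leaving out a heart of these 2 leaves no residual spread and was not run, nor was DESeq2. Low depth limits the arterial pole of heart 3 most.

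Of 1571 log2 fold changes of named genes under the alternatives, 26 reversed in sign, and the cause was not tested. A further 90 lost their call, 104 gained one, 12 moved by more than the SE of the reported fit and 1339 stayed the same. The marker genes of the regions were scored only as moved or same, so that a change of sign in them is not among the 26. Signs and values in this paragraph are those before the median of all genes is taken off. With median-of-ratios factors and with limma, rplp2l was -0.219 and -1.22 and RPS10 -0.117 and -1.202. With no replicate block, FHL2 was 0.0753 and the second TBX2 row -0.35. With the arterial sections of heart 1 widened, afp4 was 0.0136. With sections under 10000 reads left out, RHAG was 2.539, FN1 0.957, MT-CYB 0.0683 and MT-CO1 0.177. Leaving out 1 heart gave -1.18 to 7.016 for krt4, -2.818 to 2.279 for rplp2l, -2.64 to 2.346 for RPS10, -0.7338 to 3.446 for TBX2, -5.159 to 2.517 for RHAG, -4.492 to 1.014 for ckma, -6.424 to 0.9354 for FN1, -6.051 to 2.199 for ALDOA, -4.134 to 0.0632 for MT-CYB and -2.793 to 0.1847 for MT-CO1.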
